A study of Mus musculus with 18 samples.

Results

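miR-18a and miR-19 are the 2 seed families of the miR-17~92 cluster that are made from its Mir18, Mir19a and Mir19b-1 hairpins. The rows were chosen by name alone and are mmu-miR-18a-5p, mmu-miR-18a-3p, mmu-miR-19a-3p, mmu-miR-19b-3p and mmu-miR-19b-1-5p, 5 of the 1367 mature miRNAs in the series' tables. Small RNA was sequenced in 18 libraries of Eu-myc mice, 15 of embryonic fibroblasts (MEF) and 3 of B cells of the spleen. Each cell type has a group with floxed but undeleted miR-17~92 (fl/fl), a group that lost it (d/d) and a group that overexpresses it (OV), each of 3 libraries in MEF and of 1 in B cells. In a separate MEF set, cells with the cluster deleted received an empty plasmid (Empty) or overexpressed miR-290~295, with 3 libraries each, so both arms of that set lack miR-17~92. The sources used here do not say how OV cells were made, and the labels call the cells of the 3 levels isogenic. The labels do not say that replicates came from separate cultures, so p-values measure only the spread between these libraries, which may be technical.

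A miRNA is cut as a hairpin from a long primary transcript by Drosha, trimmed by Dicer, and loaded as a single strand into Argonaute, where bases 2 to 8 (the seed) find its targets. MYC activates miR-17~92, and miR-19 is the family most closely tied to the growth of Eu-myc B-cell lymphoma. miR-18a is known for repressing Smad4 and other parts of TGF-beta signalling, and its hairpin is a classic ligand of the RNA-binding protein hnRNP A1.

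The mature sequences are shown first because the results turn on which members share a seed or an exact copy elsewhere in the genome. They come from RefSeq on GRCm38.p6, which held all 5 members, and the seed is in capitals.
mmu-miR-18a-5p: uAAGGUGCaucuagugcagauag
mmu-miR-18b-5p: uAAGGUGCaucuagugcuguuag
mmu-miR-18a-3p: aCUGCCCUaagugcuccuucug
mmu-miR-19a-3p: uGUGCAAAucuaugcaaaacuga
mmu-miR-19b-3p: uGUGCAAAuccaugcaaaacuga
mmu-miR-19b-1-5p: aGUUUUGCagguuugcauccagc
The 3 hairpins lie on the plus strand of chromosome 14 in exon 2 (chr14:115043271-115046727) of the non-coding host gene Mir17hg. Mir18 lies at chr14:115043851-115043946, Mir19a at chr14:115044000-115044081 and Mir19b-1 at chr14:115044305-115044391.

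Counting from 1 at the 5′ end, miR-19a-3p and miR-19b-3p differ by 1 substitution outside the seed, U11C. miR-18a-5p and miR-18b-5p differ by 2, A18U and A20U, also outside the seed. miR-18b-5p is made from Mir18b on the minus strand of chromosome X (chrX:52742331-52742413), in the paralogous cluster that begins with Mir106a. That cluster also holds Mir19b-2 (chrX:52741983-52742066), whose 3p arm is the same 23 bases as miR-19b-3p. The hairpins below show this, with mature arms in capitals.
Mir19b-1: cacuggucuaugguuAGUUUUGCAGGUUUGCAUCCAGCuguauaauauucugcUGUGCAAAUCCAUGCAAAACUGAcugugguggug
Mir19b-2: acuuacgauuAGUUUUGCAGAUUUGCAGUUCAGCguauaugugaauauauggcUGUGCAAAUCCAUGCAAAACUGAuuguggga
A read of miR-19b-3p can therefore not be assigned to chromosome 14 or X, and miR-92a-3p has 2 such loci as well. The other 4 members each have 1 locus in the RefSeq table. Each member's seed is found in 2 of the 1679 mature entries of that table. The seed of miR-18a-5p differs from that of miR-17-5p and miR-20a-5p, its neighbours in the cluster, by the single substitution G4A.

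Libraries of the miR-17~92 MEF set held 17191892 to 24920911 reads on listed miRNAs, those of the miR-290~295 set 43164128 to 58911475, and B-cell libraries 10203586 to 10612256. All 7 miRNAs listed as fibroblast markers had reads in every MEF group. Other marker lists differed between the MEF groups. The 3 epithelial markers, of which miR-141-3p is not listed in MEF, summed to 198 to 204 normalized counts in fl/fl, 54.6 to 59.5 in OV and 26.9 to 35.1 in d/d. The 5 blood cell markers summed to 12891 to 13879 in fl/fl, 10331 to 14193 in OV and 7852 to 10144 in d/d. Their part in the MEF values of the members was not tested. In B cells the same 5 markers summed to 172278 normalized counts in fl/fl, 184777 in OV and 182610 in d/d. Among them miR-142a-5p stood at 72327 to 90178 and miR-142a-3p at 60603 to 68415. In fl/fl, OV and d/d, miR-181a-5p stood at 25435, 42896 and 31351, and miR-155-5p at 597, 1068 and 469. miR-150-5p, a miRNA of mature lymphocytes, stood at 62.2, 71.0 and 8.73. The myeloid miR-223-3p had 20 reads in the d/d library, against none (fl/fl) and 1 (OV). The 6 fibroblast markers other than miR-21a-5p summed to 8283 normalized counts in d/d B cells, against 2039 in fl/fl and 1960 in OV. The part of these markers in the B-cell values of miR-18a and miR-19 was not tested.

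In fl/fl MEF the miR-19 guide strands were the most abundant of the 5, followed by miR-18a-3p, miR-18a-5p and, far lower, miR-19b-1-5p. Values are normalized counts, that is reads divided by 1 size factor per library. All 5 are 22 or 23 bases long, so levels were not scaled by length. miR-19b-3p stood at 594 ± 10.7 (SD, n = 3) and miR-19a-3p at 522 ± 46.2. miR-18a-3p stood at 302 ± 22.0, miR-18a-5p at 90.6 ± 5.12 and miR-19b-1-5p at 4.07 ± 1.83. The ranges of neighbours in this order did not overlap, although FL4 held 575 of miR-19a-3p against 583 of miR-19b-3p.

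**Figure D1:**
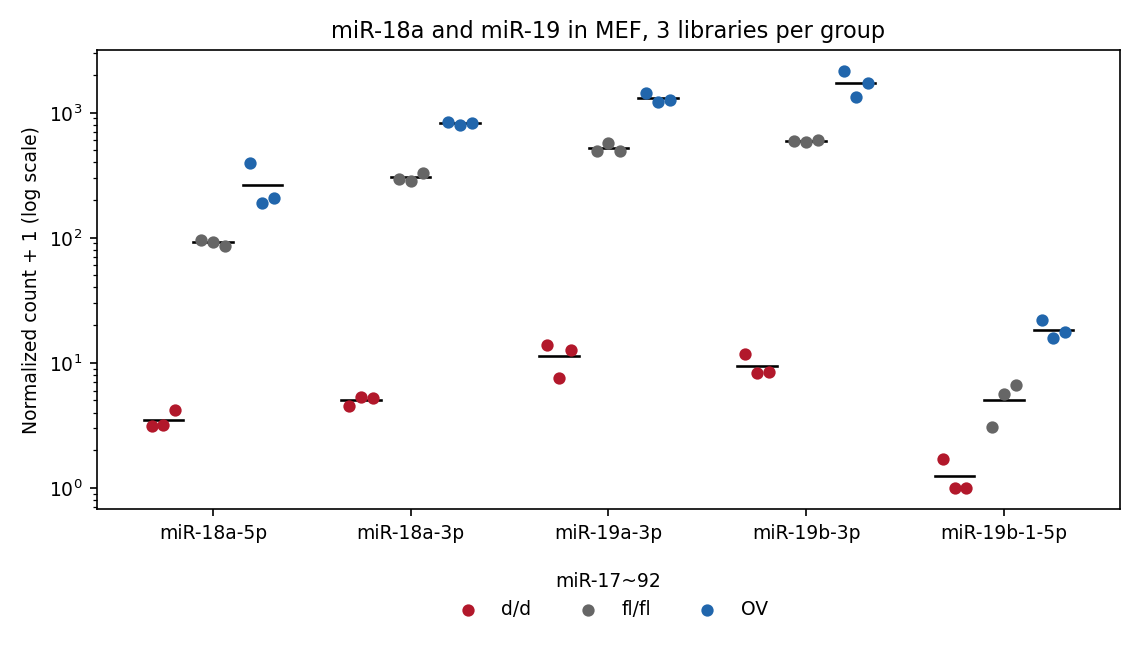
Normalized count + 1 on a log axis of the 5 members in the 9 libraries of the miR-17~92 MEF set, with points for libraries and bars for the group mean. The 3 groups are separated for every member, and miR-19b-1-5p falls to 0 in 2 of the 3 d/d libraries.

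In OV MEF the kept members stood 2.50- to 2.87-fold above fl/fl. miR-18a-3p, the strand that dominates the miR-18a pair in MEF, held 845, 793 and 825 normalized counts in OV1, OV2 and OV4, and 294, 285 and 327 in FL3, FL4 and FL5. The OV libraries were all higher than the fl/fl libraries and close to each other. The log2 difference was 1.44 ± 0.15 (SE), or 2.72-fold, with a limma adjusted p of 0.000146.
miR-18a-5p, the strand with the miR-18 seed, held 391, 189 and 205 in OV and 95.2, 91.6 and 85.1 in fl/fl. OV1 stood apart from the other 2 OV libraries, and the groups did not overlap. Its log2 difference was 1.44 ± 0.28, with a limma adjusted p of 0.00433, and 1.11 without OV1, with a limma adjusted p of 0.00686.
miR-19a-3p, 1 of the 2 strands with the miR-19 seed, held 1429, 1213 and 1269 in OV and 494, 575 and 496 in fl/fl. All 3 OV libraries were above all 3 fl/fl libraries. The log2 difference was 1.32 ± 0.22, with a limma adjusted p of 0.00257.
miR-19b-3p, the other strand with that seed, held 2143, 1338 and 1728 in OV and 595, 583 and 604 in fl/fl. The OV libraries spread more widely than the fl/fl libraries and did not overlap them. Its log2 difference was 1.52 ± 0.20, with a limma adjusted p of 0.000663.

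Of the 5 members, 4 reached the minimum mean of 10 normalized counts, and all 4 rose in OV, where 15.6% of the 662 kept miRNAs were called higher and 31.3% in either direction. Groups that did not overlap, with OV higher, were found for 24.5% of kept miRNAs. Their median log2 difference was 1.44, against -0.07 over all kept miRNAs. miR-19b-1-5p, the passenger strand of Mir19b-1, fell below the minimum. It held 20.8, 14.9 and 16.5 normalized counts in OV and 2.05, 4.58 and 5.60 in fl/fl, with no overlap. In a fit without the minimum its log2 difference was 1.92 ± 0.45, with a limma adjusted p of 0.0127, where 8.22% of 1204 miRNAs were called higher.

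The other products of the cluster rose as well. All 6 of 7 that were kept were called higher, with a median log2 difference of 1.99 and a range of 1.74 to 2.47. miR-17-5p rose by 1.74 ± 0.18 (limma adjusted p 0.000131), miR-20a-5p by 2.05 ± 0.15 (limma adjusted p 1.72e-05) and miR-92a-3p, a member of the miR-25 family and by far the most abundant product, by 2.47 ± 0.16 (limma adjusted p 1.18e-05). miR-19a-5p is not listed in the MEF tables. Of the 6 products of miR-106b~25, a paralogous cluster without a miR-18 or miR-19 hairpin, 0 passed limma and 0 had an unadjusted p under 0.05, 0 passed edgeR and 1 passed DESeq2, with limma differences of -0.49 to 0.22. Of the 10 products of the paralogous cluster on chromosome X, 2 were kept in MEF, miR-106a-5p and miR-20b-5p, near copies of miR-17-5p and miR-20a-5p, and both were called higher (1.68 and 1.98). The sources used here do not say how reads were split between such near copies.

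**Figure D2:**
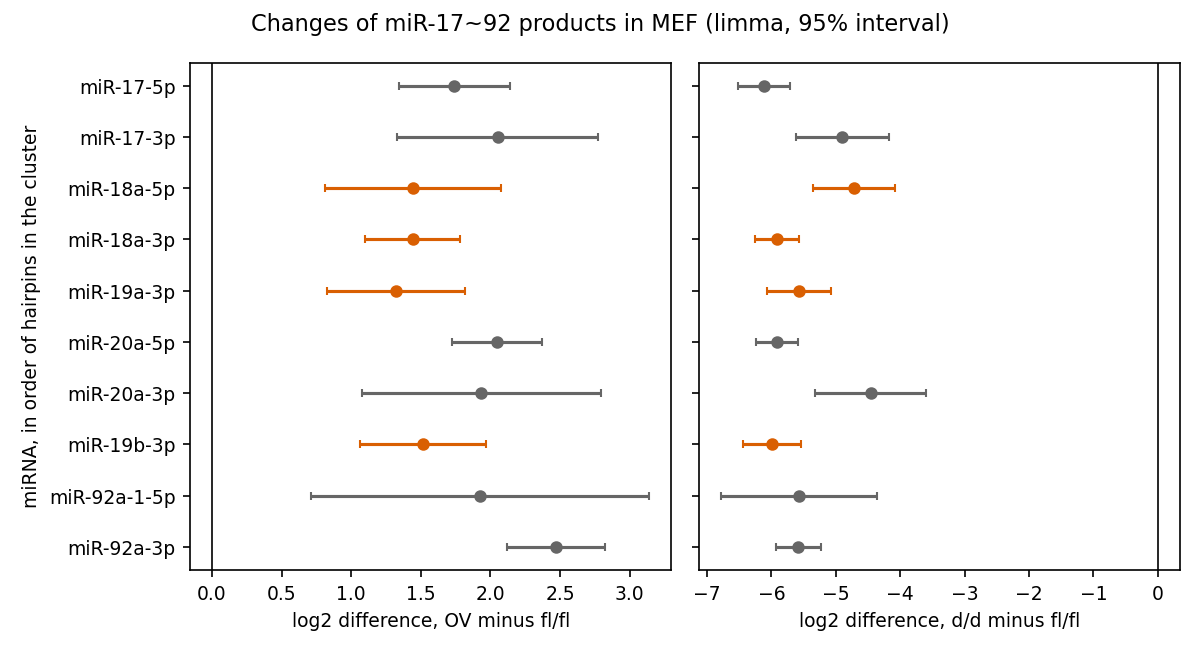
Log2 differences of the kept miR-17~92 products in MEF, OV minus fl/fl (left) and d/d minus fl/fl (right), in the order of their hairpins, with limma 95% intervals and the members in orange. In OV the 4 members lie between 1.32 and 1.52 and the other products between 1.74 and 2.47, and in d/d members and other products lie in the same range.

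Deletion of the cluster left a few reads of each member. miR-18a-3p held 3.55, 4.36 and 4.25 normalized counts in DEL1, DEL2 and DEL3, from 15 reads in all, which is 1.33% of the fl/fl level with a counting interval of 0.744% to 2.21%. miR-18a-5p held 2.13, 2.18 and 3.19, from 9 reads, or 2.66% of fl/fl (1.20% to 5.14%). miR-19a-3p held 12.8, 6.54 and 11.7, from 38 reads, or 1.96% of fl/fl (1.38% to 2.70%). The d/d libraries of these 3 members were all far below the fl/fl libraries. miR-19b-3p held 10.7, 7.26 and 7.44, from 32 reads, or 1.45% of fl/fl (0.985% to 2.05%). The remaining shares of the 4 members have counting intervals that overlap each other. Intervals cover counting error only, at 95%, and reads without molecular identifiers are not independent molecules.

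The log2 differences between d/d and fl/fl were -5.91 ± 0.15 for miR-18a-3p, -4.72 ± 0.28 for miR-18a-5p, -5.57 ± 0.22 for miR-19a-3p and -5.99 ± 0.20 for miR-19b-3p. The limma adjusted p-values were 7.15e-10, 6.91e-07, 1.82e-08 and 4.22e-09. All 4 kept members fell, where 27.6% of kept miRNAs were called lower (58.3% in either direction) and 33.1% had all d/d below all fl/fl libraries, with a median log2 difference of -5.74 against 0.02 over all. These values are on the log2 (count + 1) scale, which understates the fall of members that end near 3 counts. The 6 other kept products fell too, with a median of -5.58 and a range of -6.12 to -4.46, as did both kept products of the chromosome X cluster (-3.73 and -2.43) and 4 of the 6 of miR-106b~25 (median of the 6 -0.58, and 6 called lower with the spike-in table). miR-19b-1-5p kept 1 read in DEL1 and none in DEL2 and DEL3, against 11 reads in fl/fl, a share of 6.70% with a counting interval of 0.156% to 46.1%. The OV and d/d comparisons share the fl/fl libraries. Between OV and d/d directly, the log2 differences of the kept members ran from 6.16 for miR-18a-5p to 7.51 for miR-19b-3p, and all 4 passed (limma), where 26.7% were called higher and 52.4% in either direction. In bulk libraries a lower share of cells with the intact cluster and less of each miRNA per cell cannot be told apart.

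Because the hairpins on chromosome 14 lie in 1 host gene, members were also set against miR-92a-3p of the same library. This ratio does not depend on library scaling. Reads of miR-92a-3p and miR-19b-3p can also come from their copies on chromosome X. Per 1000 reads of miR-92a-3p, fl/fl MEF held 8.45 ± 1.65 of miR-19b-3p and 7.49 ± 2.05 of miR-19a-3p (SD, n = 3), and OV MEF held 4.48 ± 1.50 and 3.33 ± 0.641. For miR-18a-3p the values were 4.30 ± 0.919 in fl/fl and 2.09 ± 0.286 in OV, and for miR-18a-5p 1.28 ± 0.235 and 0.683 ± 0.366. Relative to miR-92a-3p the members differed between OV and fl/fl by -1.03 ± 0.29 (miR-18a-3p), -1.03 ± 0.37 (miR-18a-5p), -1.15 ± 0.31 (miR-19a-3p) and -0.95 ± 0.29 (miR-19b-3p) on the log2 scale. All 4 passed limma, with adjusted p-values of 0.00153, 0.00941, 0.000920 and 0.00330, where 98% of kept miRNAs were called lower relative to miR-92a-3p. The other kept cluster products were lower on this ratio as well. miR-17-5p differed by -0.73 ± 0.28 (limma adjusted p 0.0137) and miR-20a-5p by -0.43 ± 0.26 (limma adjusted p 0.118). The values were -0.42 for miR-17-3p, -0.54 for miR-20a-3p and -0.55 for miR-92a-1-5p, none of which passed limma. These ratios share the error of miR-92a-3p, so their moderated p-values are too small. By a two-sided exact permutation test, added after seeing the data, miR-19a-3p, miR-19b-3p and miR-18a-3p each gave p = 0.1. That is the smallest p that 3 against 3 libraries allow. How many of all kept miRNAs reach it on this ratio was not counted. miR-18a-5p gave an exact p of 0.2, since OV1 lay within the fl/fl range. Outside the members, miR-17-5p and miR-20a-5p also gave an exact p of 0.2 each. Adjusted over 20 exact ratio tests these are 0.286 and 0.308. Set against miR-17-5p in place of miR-92a-3p, 0 of the 4 members passed limma in OV, also at an unadjusted p under 0.05. With that reference, 587 of 661 kept miRNAs were called lower in OV. Summed, the 5 members made up 1.95% ± 0.388 of all reads of miR-17~92 products in fl/fl, 0.995% ± 0.245 in OV and 1.62% ± 0.371 in d/d.

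In d/d the log2 differences from fl/fl relative to miR-92a-3p were -0.32 ± 0.29 for miR-18a-3p (95% interval -0.92 to 0.27), 0.01 ± 0.31 for miR-19a-3p (-0.62 to 0.64) and -0.41 ± 0.29 for miR-19b-3p (-1.01 to 0.19), none of which passed limma, also unadjusted. For miR-18a-5p the difference on the log2 (count + 1) scale was 0.86 ± 0.37, with a limma adjusted p of 0.0266, where 98.8% of kept miRNAs were called higher. It rests on 3 reads in each d/d library, where the added count of 1 weighs heavily, and the call was lost with a pseudocount of 0.5, with a minimum mean of 100 and without FL3, FL5 or DEL3. Without a pseudocount, d/d held 1.38, 1.37 and 2.41 reads of miR-18a-5p per 1000 of miR-92a-3p against 1.05, 1.52 and 1.28 in fl/fl, and the groups overlap. The share of miR-92a-3p that remained, 2.07%, lies within the counting interval of miR-18a-5p, so a difference between them was not detectable at this depth. On the same scale d/d held 7.06 ± 2.58 of miR-19a-3p, 5.69 ± 1.17 of miR-19b-3p and 2.75 ± 0.456 of miR-18a-3p (SD, n = 3).

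The 2 arms of the Mir18 hairpin were of unequal abundance, and the more abundant arm differed between the cell types. In fl/fl MEF the 3p arm had 3.09, 3.11 and 3.84 times the reads of the 5p arm, a mean of 3.35 ± 0.429. In OV MEF it had 2.16, 4.20 and 4.02 times, a mean of 3.46 ± 1.13, with OV1 lowest. The log2 ratio of 5p to 3p differed between OV and fl/fl by -0.0011 (two-sided exact permutation p = 1), although miR-18a-3p rose 2.72-fold. In fl/fl B cells, the 5p arm had the majority, with 2319 reads against 789, or 2.94 times. In OV B cells it had 3688 against 1264, or 2.92 times. The 6 fl/fl and OV MEF libraries and the 2 B-cell libraries fell on opposite sides of an even ratio. The MEF and B-cell tables were normalized separately, but this ratio lies within each library. With 1 B-cell library per group the difference was not tested. In d/d MEF the 3p arm led by 4 to 6 reads against 3, with an exact permutation p of 0.1 against fl/fl (0.286 after adjustment), and the d/d B-cell library had 12 reads of the 5p arm and 0 of the 3p arm.

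**Figure D3:**
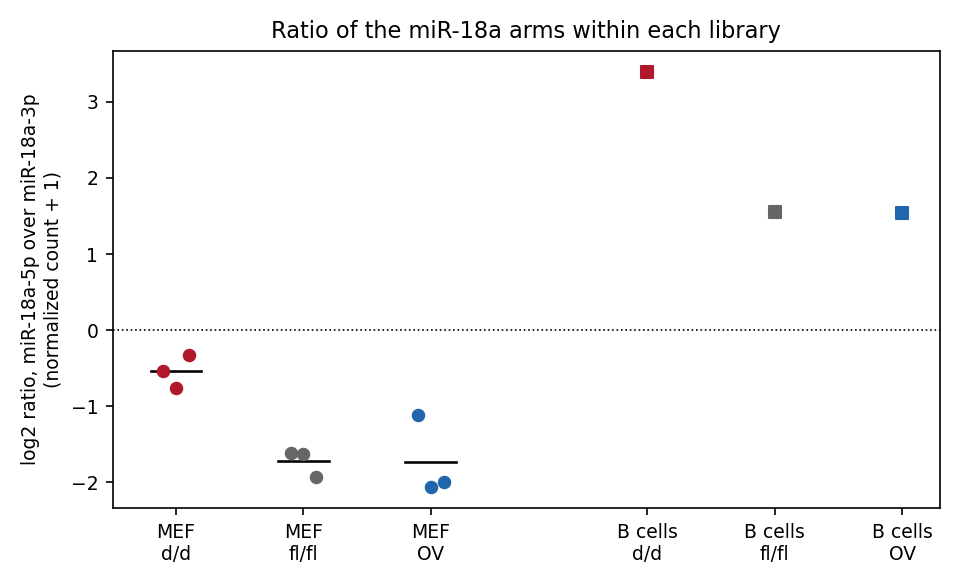
Log2 ratio of miR-18a-5p to miR-18a-3p (normalized count + 1) in each library, with bars for MEF group means and squares for single B-cell libraries. All 9 MEF libraries lie below 0 and all 3 B-cell libraries above, and the d/d points rest on 12 reads or fewer of either arm.

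The 2 miR-19 strands were close to each other in level. miR-19b-3p had 1.20, 1.01 and 1.22 times the reads of miR-19a-3p in fl/fl MEF and 1.50, 1.10 and 1.36 times in OV MEF, with overlapping groups and an exact permutation p of 0.3. In d/d MEF the ratio was 0.833, 1.11 and 0.636, with an exact p of 0.2 against fl/fl. The passenger strand miR-19b-1-5p was rare throughout: miR-19b-3p had 108 to 291 times its reads in fl/fl MEF and 89.9 to 105 times in OV MEF, with overlapping groups and an exact permutation p of 0.4.

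In fl/fl B cells all members made up a larger share of reads than in fl/fl MEF, and the order among them differed. Reads per 1000000 listed miRNA reads (RPM) in fl/fl B cells were 466 for miR-19b-3p, 263 for miR-19a-3p, 219 for miR-18a-5p, 74.3 for miR-18a-3p and 3.96 for miR-19b-1-5p. In fl/fl MEF the same quantities were 30.4 ± 1.19, 26.7 ± 1.75, 4.64 ± 0.324, 15.5 ± 1.26 and 0.208 ± 0.0915 (SD, n = 3). The libraries come from separately made tables and are given side by side only. As a share of all miR-17~92 reads the 5 members made up 0.817% in fl/fl B cells, below the 1.95% of fl/fl MEF.

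Against fl/fl, the OV B-cell library held more of each member. miR-18a-5p stood at 4940 against 2186 normalized counts, a ratio of 2.26 (counting interval 2.14 to 2.38), and miR-18a-3p at 1693 against 744, a ratio of 2.28 (2.08 to 2.49). miR-19a-3p stood at 11058 against 2634, a ratio of 4.20 (4.02 to 4.38), and miR-19b-3p at 16265 against 4658, a ratio of 3.49 (3.38 to 3.61). Both miR-18a arms thus had lower ratios than both miR-19 strands, with counting intervals that do not overlap. miR-19b-1-5p stood at 303 against 39.6, a ratio of 7.65 (5.48 to 10.9), so that miR-19b-3p had 53.7 times its reads in OV and 118 times in fl/fl. For comparison the ratio was 3.51 for miR-17-5p, 3.52 for miR-20a-5p and 4.04 for miR-92a-3p. All 5 members passed a 2-fold difference, as did 6.3% of the 476 kept miRNAs, and the median log2 difference was 1.80 for the members and 0.02 over all. No replicate spread is known for these values.

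**Figure D4:**
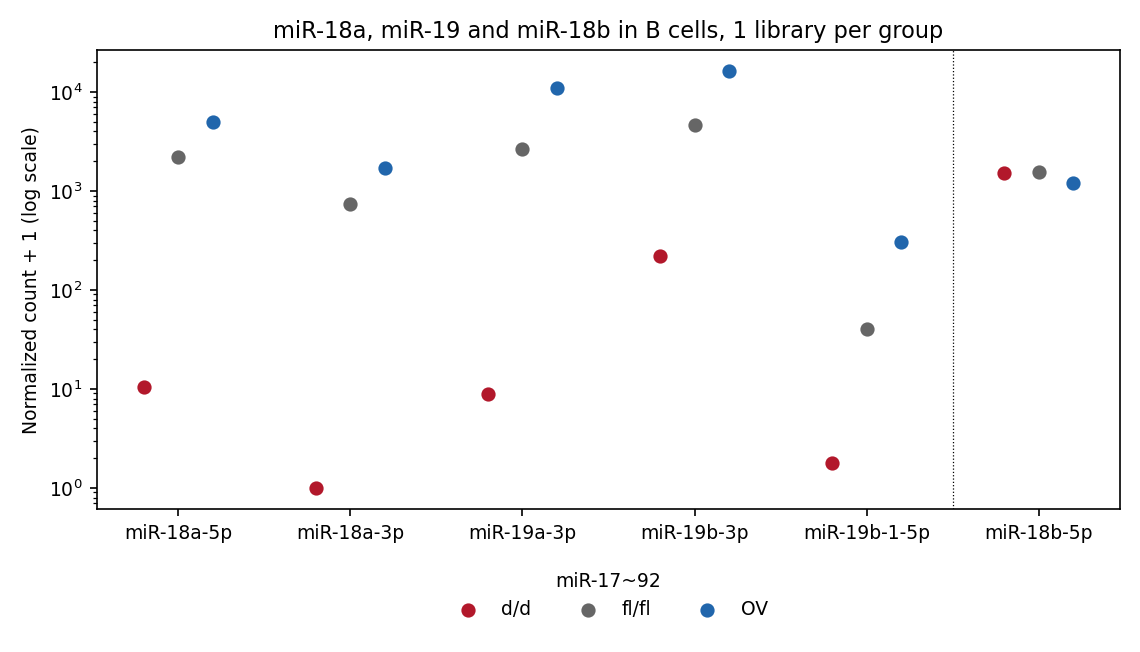
Normalized count + 1 on a log axis of the 5 members and of the paralog miR-18b-5p in the 3 B-cell libraries. Each member is lowest in d/d and highest in OV. In d/d, 4 members lie below 10 and miR-19b-3p lies at 219, while miR-18b-5p lies between 1210 and 1553 in all 3.

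In d/d B cells miR-19b-3p kept a larger share of its fl/fl level than miR-19a-3p and both miR-18a arms. miR-18a-5p kept 12 reads, 0.436% of fl/fl (0.225% to 0.763%), and miR-19a-3p kept 10 reads, 0.301% (0.144% to 0.555%). miR-18a-3p had 0 reads, at least 312-fold lower than fl/fl at a floor of 3 reads. miR-19b-1-5p had 1 read, 2.01% of fl/fl (0.0496% to 11.8%). miR-19b-3p kept 276 reads, 4.70% of fl/fl (4.15% to 5.31%), and its counting interval lies above those of miR-18a-5p and miR-19a-3p. It had 27.6 times the reads of miR-19a-3p there, against 1.77 times in fl/fl and 1.47 times in OV. In d/d MEF it had 0.860 ± 0.239 times the reads of miR-19a-3p (SD, n = 3). All 5 members passed a 2-fold lower level in d/d B cells, as did 18.1% of kept miRNAs.

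miR-19b-3p is the member whose exact sequence also lies in Mir19b-2 on chromosome X (the hairpin shown above). miR-92a-3p, with a second copy in Mir92-2 on chromosome X, kept 2.98% of fl/fl in d/d B cells (2.95% to 3.01%). miR-17-5p and miR-20a-5p, with 1 locus each, kept 0.250% and 0.236%. The products of the chromosome X cluster that have sequences of their own summed to 39132 normalized counts in the fl/fl B-cell library, 34575 after deletion and 41333 in OV, and to 13.7 ± 4.88, 55.1 ± 10.3 and 170 ± 32.6 in the d/d, fl/fl and OV MEF. Most of the fl/fl and OV MEF sums was miR-106a-5p (36.0 and 119) and miR-20b-5p (9.79 and 42.1). These are near copies of miR-17-5p and miR-20a-5p, and how reads were split between them is not known. miR-363-3p held 6.77, 6.37 and 5.09 in d/d, fl/fl and OV MEF. The 5p arm of Mir19b-2 itself, miR-19b-2-5p, had 3 reads in fl/fl B cells and 1 read each in the d/d and OV libraries. How many miR-19b-3p reads came from chromosome X was not tested, since the reads of the copies are the same.

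**Figure D5:**
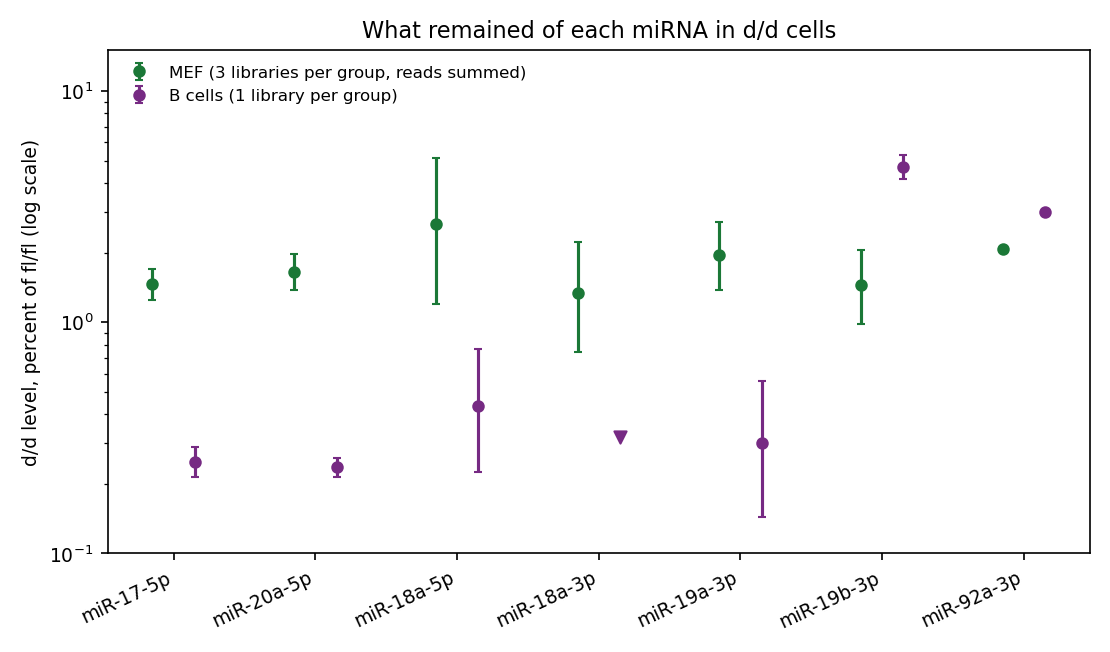
Level in d/d as a percent of fl/fl on a log axis, from summed reads, with counting intervals, in MEF (green) and B cells (purple). The triangle is the bound from 3 reads for miR-18a-3p. In B cells miR-19b-3p (4.70%) and miR-92a-3p (2.98%), the strands with a copy on chromosome X, lie above the others, and in MEF the plotted shares lie between 1.33% and 2.66%. miR-19b-1-5p, with 1 read in each d/d cell type, is not plotted.

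Both clusters gave many reads with the miR-18 seed in B cells, while in fl/fl and OV MEF nearly all such reads were miR-18a-5p. The fl/fl, d/d and OV B-cell libraries held 1553, 1520 and 1210 normalized counts of miR-18b-5p. It made up 99.4% of reads with the miR-18 seed in d/d (Wilson 95% interval 98.9% to 99.6%), 41.5% in fl/fl (40.0% to 43.1%) and 19.7% in OV (18.5% to 20.8%). The sum of both strands in d/d B cells was 40.9% of fl/fl, while that of the miR-19 seed (miR-19a-3p and miR-19b-3p) was 3.11%. In MEF miR-18b-5p had 0 or 1 read per library, and the miR-18 seed fell to 3.00% and the miR-19 seed to 1.68% of fl/fl in d/d. The miR-18 seed rests there on 3 or 4 reads per library, too few to give the share of each cluster. Reads that differ from miR-18a-5p by A18U and A20U can be split wrongly by a counting method that allows mismatches or trimmed ends, and the sources used here do not say how the submitters counted.

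In the miR-290~295 set, where both groups have miR-17~92 deleted, only traces of the members were read. The 6 fibroblast markers other than miR-21a-5p summed to 2960090 to 4227380 normalized counts in Empty and 1843390 to 2126780 in miR-290~295, and their part in the values below was not tested. miR-19a-3p, miR-19b-3p and miR-18a-3p are listed, none of them reached the minimum, and miR-18a-5p and miR-19b-1-5p are not listed. miR-19b-3p held 7.87, 3.54 and 2.91 normalized counts in Empty and 0, 2.06 and 0 in miR-290~295, from 14 and 2 reads, a ratio of 0.142 with a counting interval of 0.0157 to 0.620. miR-19a-3p held 5.62, 2.66 and 0 in Empty and 0 in all 3 miR-290~295 libraries, from 8 reads. miR-18a-3p had 2 reads in each group. Of these 3, only miR-19b-3p had groups that did not overlap, as did 26.1% of the 840 kept miRNAs in the same direction. Those 840 do not include any of the 3, and the share among miRNAs with so few reads was not counted. In a limma fit without a minimum, 0 of 3 passed and 1 had an unadjusted p under 0.05, miR-19b-3p with a log2 difference of -1.90 ± 0.66 and an adjusted p of 0.0605. Without a minimum 13.7% of 1265 miRNAs were called lower. Among the 840 kept miRNAs, 22.3% were called lower and 38.9% in either direction. The 3 other cluster products that were kept fell in miR-290~295 cells, with log2 differences of -2.69 for miR-17-5p (limma adjusted p 0.00195), -3.98 for miR-20a-5p (limma adjusted p 0.000286) and -2.25 for miR-92a-3p (limma adjusted p 9.28e-05). These are differences among residual reads. All listed miR-17~92 products together held 668 to 864 reads per Empty library and 125 to 190 per miR-290~295 library.

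Outside the 3 paralogous clusters, 5 miRNAs followed the members most closely over the 9 libraries of the miR-17~92 MEF set. The measure was Pearson's r between the log2 value of each kept miRNA and the mean of the 4 kept members. The highest r was 0.994 for miR-224-5p, then 0.990 for miR-194-5p, 0.986 for miR-30d-5p, 0.984 for miR-192-5p and 0.983 for miR-153-5p. The 9 points come from 3 groups, and libraries of a group share their level. In OV, fl/fl and d/d MEF, miR-224-5p stood at 72443 ± 1932, 57141 ± 4256 and 20236 ± 932 normalized counts (SD, n = 3). miR-30d-5p stood at 384451 ± 17572, 368676 ± 7008 and 186075 ± 7474. miR-153-5p held 76.8 ± 36.3 and 43.3 ± 23.1 in OV and fl/fl and 0 in d/d. For the cluster's own other kept products r ran from 0.977 for miR-92a-1-5p to 0.998 for miR-17-5p, with 0.990 for miR-92a-3p. The 5 outside miRNAs lie within this range.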

How the data were processed

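Small RNA libraries (NEBNext small RNA kit, total RNA with spike-ins, per the labels' protocols) were analysed from 5 deposited tables. The authors' deposited values are a signal: reads of each mature miRNA over a size factor of the library. The submitters' processing notes name DESeq2. The sources used here name no aligner, counter, annotation or build. Whole reads were recovered from each library's step in 100% of values within 0.0001. Another 33 columns of rlog values were not used. OV and fl/fl MEF columns (OV1, OV2, OV4, FL3 to FL5) are numbered otherwise than the labels' replicates, so they were used by group.

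A miRNA was kept where its mean normalized count in a table reached 10 (662 of 1204 in the miR-17~92 MEF set, 840 of 1265 in the miR-290~295 set, 476 of 756 in B cells). Tables without spike-in scaling were used. MEF comparisons used limma 3.58.1 (R 4.3.3) with a trended prior on log2 (normalized count + 1), all groups of a table in 1 fit without covariates. P-values were adjusted by Benjamini-Hochberg over every kept miRNA, with a threshold of 0.05. Alternatives were the spike-in tables, libraries re-centred on their medians, edgeR 4.0.16 with TMM and DESeq2 1.42.0 on whole reads, pseudocounts of 0.5 and 5, no minimum or 100, miR-17-5p as the reference, the replicate block and leaving out each library. Ratios within a library were compared by two-sided exact permutation tests (scipy 1.17.1), 20 in all. Counting intervals are exact (conditional binomial) for ratios of reads and Wilson for shares. The scripts were tested on simulated data. Sums over members are given without the p-value first planned for them.

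The 5 members are always named, beside the other products of miR-17~92, its 2 paralogous clusters and the 5 miRNAs most like the members. Members, lists and tests were chosen with earlier results of these data known.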

Additional observations from a re-analysis of the deposited data

Results flagged for a closer look

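miR-19a-3p relative to miR-92a-3p differed between OV and fl/fl by -1.15 on the log2 scale in MEF. All 3 OV libraries lay below all 3 fl/fl libraries there. In B cells it differed by 0.0560, a value of opposite sign but within counting error. The counting interval given above for the B-cell ratio of miR-19a-3p holds the ratio of miR-92a-3p. The B-cell value thus shows little or no difference rather than a reversal. In MEF, 98% of kept miRNAs were called lower in OV relative to miR-92a-3p (limma). Each B-cell group is 1 library, and the difference between the cell types was not tested.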

How the results depend on the processing

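In the 3 comparisons of the miR-17~92 MEF set, the log2 changes of the 4 kept members kept their direction under all 14 alternatives each. All stayed called at an adjusted p under 0.05, by limma or, where these replaced it, by edgeR or DESeq2. The ranges for OV against fl/fl were 1.31 to 1.58 for miR-18a-3p, 1.11 to 1.64 for miR-18a-5p, 1.19 to 1.46 for miR-19a-3p and 1.35 to 1.69 for miR-19b-3p. With the spike-in tables the summed members differed by -6.33 between d/d and fl/fl (-5.90 without) and by 7.91 between OV and d/d (7.34 without), and the median over all kept miRNAs moved from -0.07 to 0.07 (OV against fl/fl), 0.02 to -0.39 (d/d against fl/fl), 0.02 to 0.60 (OV against d/d) and 0.02 to -0.46 (miR-290~295 against Empty). The split of miRNAs called higher and lower moved from 103 and 104 to 112 and 44 (OV against fl/fl, or 83 and 153 with re-centred libraries), from 203 and 183 to 147 and 283 (d/d against fl/fl, or 162 and 245 re-centred), from 177 and 170 to 333 and 120 (OV against d/d) and from 140 and 187 to 56 and 331 (miR-290~295 against Empty). Leaving out 1 library, 124 to 236 miRNAs were called in OV against fl/fl, against 207, with 124 without FL5.

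Relative to miR-92a-3p, the count of 4 members lower in OV became 0 with miR-17-5p as the reference, and 3 to 4 with 1 library left out (3 without OV2). With miR-17-5p as the reference 587 of 661 miRNAs were called lower, and without OV2 640 of 662. The count of 1 member in d/d became 0 with a pseudocount of 0.5 or a minimum of 100, 2 with no minimum, and 0 to 1 with 1 library left out (0 without FL3, FL5 or DEL3). Exact permutation, added after seeing the data, cannot pass 0.05 with 3 libraries against 3 and gives no such count. Values with no call there changed sign: miR-18a-3p from -0.32 to 0.21 (miR-17-5p as the reference) and 0.50 (pseudocount 5), miR-19b-3p from -0.41 to 0.12 and 0.0946, and miR-19a-3p from 0.0138 to -0.0544 (pseudocount 0.5), -0.196 (without FL3), -0.121 (without DEL1) and -0.173 (without DEL3), within -0.196 to 0.336 with 1 library left out. The ratio of miR-18a-5p to miR-18a-3p in OV against fl/fl, -0.0011, was 0.0022 with a pseudocount of 0.5 and -0.31 to 0.17 with 1 library left out, and that of miR-19b-3p to miR-19b-1-5p, -0.40, was 0.20 with a pseudocount of 5. The cause was not tested.

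In the miR-290~295 set the replicate block gave 298 called miRNAs against 327, and 0 of the members either way. Same-numbered libraries correlated at 0.28, 0.01 and -0.26, so the numbers were not taken as pairs. No paired analysis was possible in the miR-17~92 set because the OV and fl/fl columns include OV4, FL4 and FL5, numbers that the labels do not use, so no OV or fl/fl column could be matched to a numbered replicate. In the libraries of d/d MEF and of the miR-290~295 set, a member's value rests on 0 to 18 reads.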
